A study of Drosophila melanogaster with 6 samples.

Results

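The mitochondrial ribosomal proteins of the fly are encoded by nuclear genes, made in the cytosol and imported, and 75 such genes stood among the 16727 genes of the count table. They were taken by symbol, as every gene named mRpL or mRpS followed by a number, with a letter where there is one, plus tko and bonsai, which encode the mitochondrial counterparts of ribosomal proteins S12 and S15. The genes divide into 47 for the large subunit, which joins amino acids, and 28 for the small subunit, which reads the messenger RNA. Discs of Drosophila melanogaster larvae were sampled at 11 days after egg laying, when the labels describe growth as completed, and at 5 days, when the tissue was actively growing. Eye-antennal imaginal discs are the larval epithelia from which eye, antenna and head capsule form. Larvae of both days had the genotype y w; +/+; +/+ and fed at 25 °C on a medium made with the YPH erg2Δ::TRP1 yeast, a strain that cannot make the hormone precursors a larva needs to pupate. Each day had 3 libraries, and each library held at least 30 discs, so that every value is a mean over many discs and over all their cell types.

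Mitochondrial ribosomes translate the few messenger RNAs of the mitochondrial genome, which in animals encode core subunits of the respiratory chain and of the ATP synthase. Their proteins descend in part from those of the bacterial ancestor and keep the bacterial numbering, and in part were added later. In Drosophila, mutations in some of these genes are known for slow growth and small size, and tko mutants for sensitivity to mechanical shock. Both days came from larvae that did not pupate, so the comparison sets a disc that has ended its growth against one that is growing. The days also differ in larval age and time on this food, and the effects of these cannot be told apart. In such bulk RNA, fewer cells of a type and less RNA per cell cannot be told apart either.

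Library totals were 7670180 to 9049513 counts for day 11 and 6542782 to 7950251 counts for day 5, and 12816 genes had a count. Values are CPM, the counts of a gene per a fixed total of counts, scaled with the TMM method of edgeR, and 3 counts stood for 0.321 to 0.461 CPM. A pair of short non-coding RNAs took 26.3% to 40.8% of all counts at day 11 and 14.5% to 19.0% at day 5, and the lowest of the day 11 shares was that of replicate 1. That library also stood apart from its group, with a chi-square per degree of freedom, over the counts of all genes, of 86.7 and 67.3 against replicates 2 and 3, which gave 8.45 against each other. All 9 listed eye-antennal disc markers were detected, 3 of them called lower and 1 higher, with hth at 1670 CPM on average at day 11 and 1785 CPM at day 5. Markers of other cells were present as well. The 5 neuronal markers summed to 329 to 526 CPM at day 11 and 231 to 260 CPM at day 5, with 3 called higher. The 6 muscle markers summed to 135 to 218 CPM at day 11 and 248 to 694 CPM at day 5, with 1 called lower, and day 5 replicate 2 was the highest library. Fat body markers spanned 68.0 to 844 CPM at day 11 and 56.6 to 516 CPM at day 5, with none of 4 tested genes called. Haemocyte markers summed to 26.1 to 130.5 CPM at day 11 and 20.5 to 33.2 CPM at day 5, with 2 of 4 tested genes called higher. Salivary gland and gut markers summed to 33.3 to 423 CPM at day 11 and 2.40 to 5.65 CPM at day 5, with 1 of 2 tested genes, Sgs1, called higher. The part of these cells in the results that follow was not tested.

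Where mitochondrial ribosomal protein genes were called, nearly all were lower in discs that had stopped growing. Of 73 genes that passed the filter on low counts, 36 were called lower at day 11 and 2 higher, at an edgeR Benjamini-Hochberg adjusted p below 0.05 over all 8010 genes tested. Among all genes tested 17.9% were called lower and 19.1% higher. The other 35 were not called, though 62 of the 73 log2 fold changes were negative. The median log2 fold change of the 73 was -0.66, beside -0.0065 over all genes tested. All 3 day 11 libraries lay below all 3 day 5 libraries in 44 of the 73 genes and above them in 4, against 25.2% and 25.6% of all genes tested. Every one of the 36 genes called lower was among the 44. A fall of at least 1 on the log2 scale was reached by 19 of the 36. Without day 11 replicate 1, the library that stood apart, 34 genes were called lower and 3 higher, with a median of -0.56 (17.5% and 19.1% of all genes). Without day 5 replicate 2, the library with the most muscle RNA, 26 were called lower and 1 higher, with a median of -0.66 (12.8% and 14.6% of all genes). Scaling by total counts alone moved the median of all genes by -0.28, and 53 genes of the set were then called lower and none higher (27.6% and 10.8% of all genes). The set is one of short transcripts, and with the trend of fold change on transcript length removed 15 genes were called lower and 7 higher, with a median of -0.23 (14.2% and 18.7% of all genes).

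**Figure D1:**
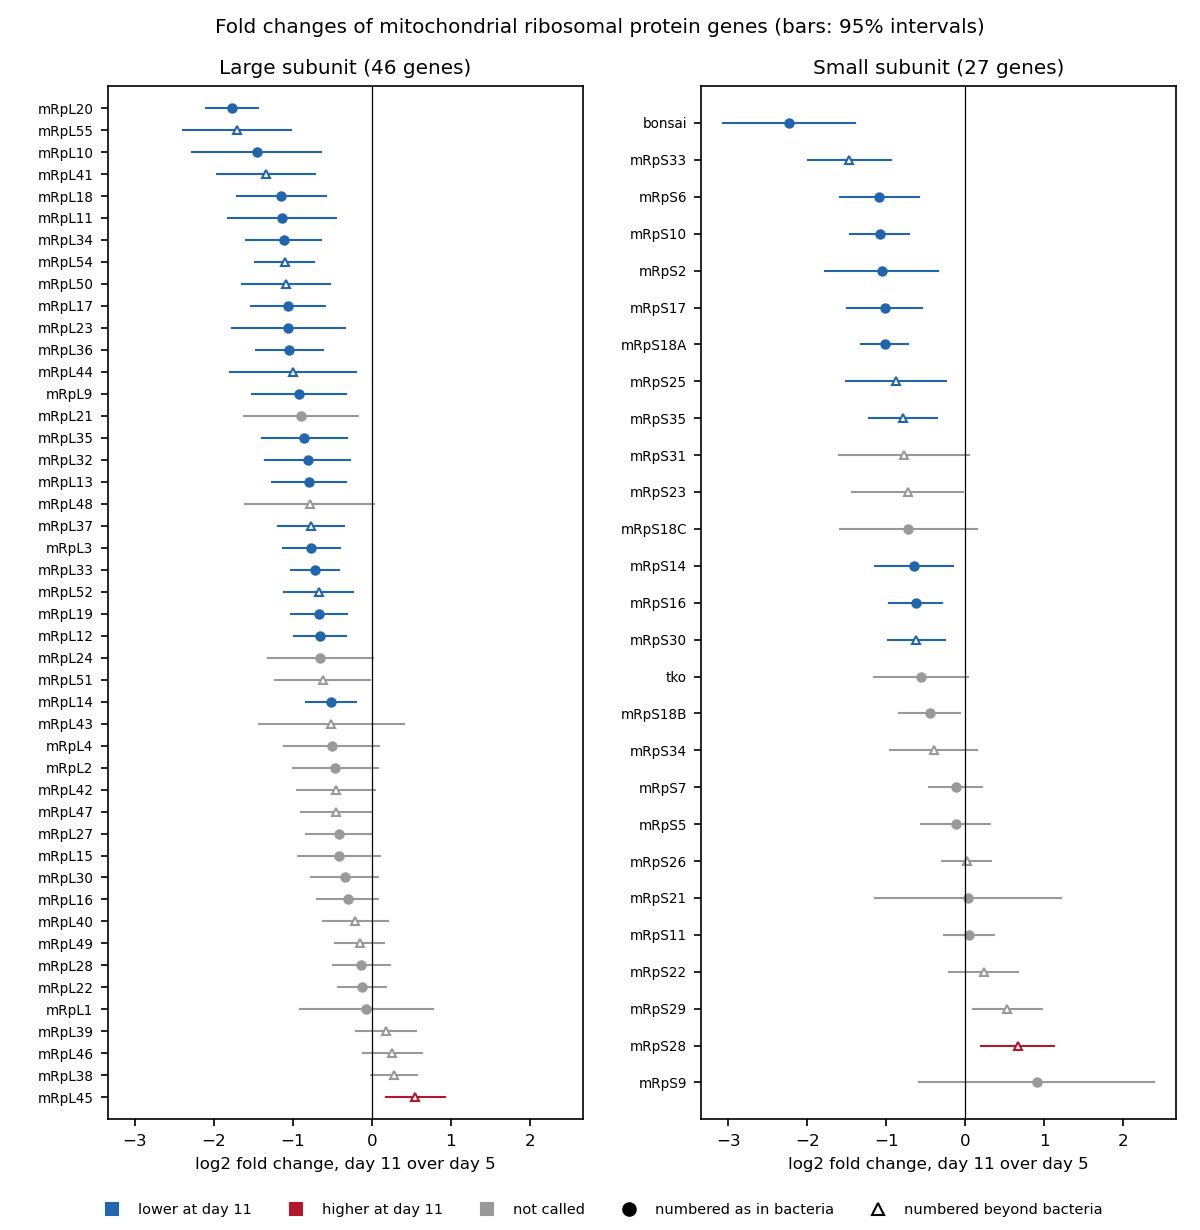
Log2 fold changes, day 11 over day 5, of the 46 large subunit and 27 small subunit genes tested, with 95% intervals from the edgeR fit. Blue marks genes called lower at day 11, red those called higher and grey those not called; filled circles are genes numbered as in bacteria and open triangles genes with higher numbers. Most points lie left of 0, with mRpL45 and mRpS28 as the genes called higher.

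The summed level of the 75 genes showed the same difference in every library. The sum was 1219, 1423 and 1415 CPM in the day 11 libraries and 1830, 2021 and 1896 CPM in the day 5 libraries. The highest day 11 library thus lay below the lowest day 5 library, with a mean of 1352 ± 116 CPM at day 11 against 1915 ± 97.2 CPM at day 5 (SD, n = 3 each), a change of -29.4%. The difference did not rest on the most abundant genes, since without the 3 largest the means were 1168 CPM at day 11 and 1671 CPM at day 5, a change of -30.1%. As a plain share of all counts, with no TMM scaling, the genes took 0.121% to 0.126% at day 11 and 0.210% to 0.212% at day 5.

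Genes of both subunits were called lower. In the large subunit 24 of 46 tested genes were called lower and 1 higher, with a median log2 fold change of -0.67. In the small subunit 12 of 27 were called lower and 1 higher, with a median of -0.63, and without either day 11 replicate 3 or day 5 replicate 2 the number was 8 lower and none higher. Without day 11 replicate 3, 12.3% of all genes were called lower and 14.4% higher. With the trend on transcript length removed, 9 large subunit genes were called lower and 3 higher (19.6% and 6.52%). In the small subunit 6 were then called lower and 4 higher (22.2% and 14.8%). The order of the shares called lower, 52.2% large and 44.4% small without this correction, thus turned round. The medians kept their order, at -0.26 large and -0.17 small. Among all genes 14.2% were then called lower and 18.7% higher. The summed level of large subunit genes was 919 ± 101 CPM at day 11 and 1330 ± 90.4 CPM at day 5 (SD, n = 3 each), a change of -30.9%, and that of small subunit genes 434 ± 17.3 CPM at day 11 and 585 ± 19.7 CPM at day 5, a change of -25.9%. The ratio of the large to the small sum was 1.93, 2.27 and 2.14 at day 11 and 2.24, 2.44 and 2.14 at day 5. These ratios overlap between the days, so a change in the balance of the subunits was not detectable with 3 libraries a day. With mRpS18A and mRpS30 counted as large subunit genes, where their mammalian counterparts sit, 26 of 48 large and 10 of 25 small subunit genes were called lower, with 1 called higher in each.

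**Figure D2:**
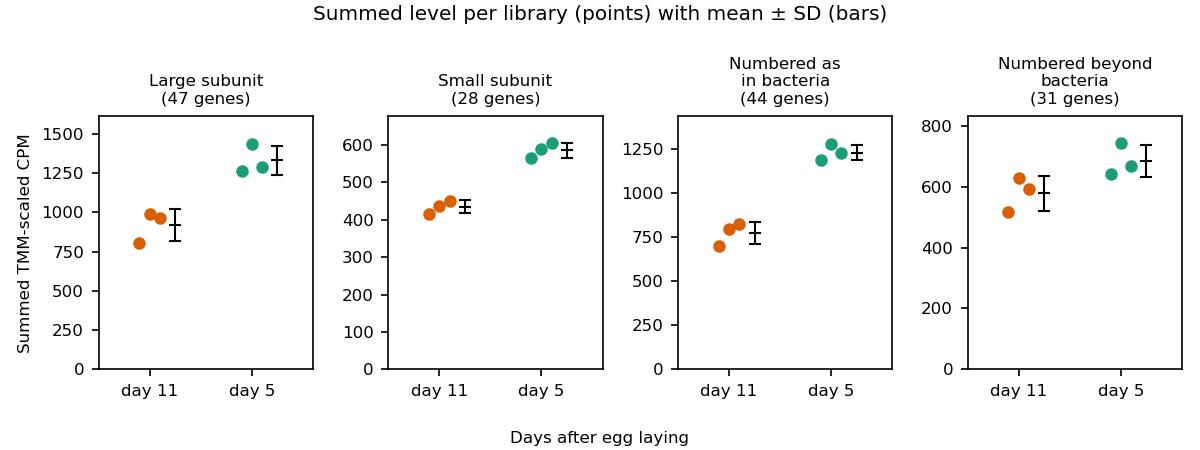
Summed TMM-scaled CPM per library (points) with mean ± SD (bars, n = 3) for the genes of each subunit and for the genes numbered as in bacteria or beyond. In each panel the 3 day 11 points lie below the 3 day 5 points, with a wider gap for bacterial numbers (774 against 1231 CPM) than for higher numbers (578 against 684 CPM).

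A second division of the set follows the numbering. Genes numbered up to 36 in the large and 21 in the small subunit, with tko and bonsai, carry the numbers of bacterial ribosomal proteins, and 44 genes were of this kind. Of these 44, all of them tested, 25 were called lower and none higher, and the median log2 fold change was -0.69. Of 29 tested genes with higher numbers 11 were called lower and 2 higher, with a median of -0.62. The 4 genes whose day 11 libraries all lay above those of day 5, mRpL38, mRpL45, mRpS28 and mRpS29, all had higher numbers. Among all genes tested 25.6% lay this way, a larger share than 4 of 29. The summed level of the bacterially numbered genes was 774 ± 62.8 CPM at day 11 and 1231 ± 45.1 CPM at day 5 (SD, n = 3 each), a change of -37.1%. That of the genes with higher numbers was 578 ± 57.4 CPM at day 11 and 684 ± 52.8 CPM at day 5, a change of -15.5%, and its highest day 11 library, at 627 CPM, was close to its lowest day 5 library, at 643 CPM. The numbers are only a guide to descent: mRpL47, mRpS24 and mRpS28 have been assigned to bacterial families from mammalian structures. With these 3 moved, a regrouping made after the data were seen, 25 of 46 and 11 of 27 genes were called lower and 1 in each called higher. With the trend on transcript length removed, 8 of the 44 bacterially numbered genes were called lower and 1 higher (18.2% and 2.27%), and 7 of the 29 with higher numbers were called lower and 6 higher (24.1% and 20.7%). The order of the shares called lower thus turned round, while the medians kept theirs, at -0.31 for bacterial and -0.13 for higher numbers. The shares of all genes were then 14.2% lower and 18.7% higher. The difference between the kinds was not tested.

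mRpL20, which in bacteria is among the proteins that start large subunit assembly, had the smallest adjusted p of the large subunit. It stood at 15.5, 15.4 and 18.6 CPM at day 11 and at 52.2, 59.4 and 56.8 CPM at day 5. The days were far apart, with each day's libraries within a narrow range, and the level at day 5 was 3.41 times that at day 11 (edgeR log2 fold change -1.77, SE 0.15, adjusted p = 7.39e-06). The gene lies on chromosome 3L from 13017149 to 13017867 on the minus strand. mRpL55, a small protein of the large subunit, showed nearly as large a fall with more spread. Its CPM were 7.48, 14.6 and 12.2 at day 11 and 23.8, 47.0 and 39.5 at day 5, replicate 1 being the lowest on each day (log2 fold change -1.70, SE 0.30, adjusted p = 0.0023). The locus of mRpL55 is chromosome 3R from 19094394 to 19094905, minus strand.

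Other large subunit genes fell as well. mRpL54 had 21.9, 20.1 and 21.5 CPM at day 11 and 49.9, 51.2 and 35.5 CPM at day 5 (log2 fold change -1.10, SE 0.17, edgeR adjusted p = 0.000463). mRpL36, a very short protein that in bacteria binds zinc, had 13.9, 21.03 and 23.7 CPM at day 11 and 42.1, 42.6 and 35.5 CPM at day 5 (log2 fold change -1.04). In neither gene did the days overlap. mRpL34, another very short protein, had 18.7, 29.3 and 28.3 CPM at day 11 and 53.4, 68.8 and 42.8 CPM at day 5 (log2 fold change -1.12, SE 0.21). mRpL17 had 14.2, 18.3 and 17.7 CPM at day 11 and 45.7, 33.4 and 25.6 CPM at day 5 (log2 fold change -1.07). mRpL41 was expressed at a lower level, with 3.95, 3.99 and 2.90 CPM at day 11 and 8.98, 10.6 and 8.08 CPM at day 5 (log2 fold change -1.34, SE 0.28). Adjusted p for mRpL36, mRpL34, mRpL17 and mRpL41 lay between 0.00164 and 0.0033.

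mRpL33 gave the most tags of all 75 genes, with 65.1, 67.5 and 66.2 CPM at day 11 and 92.0, 118 and 117 CPM at day 5. Its day 11 libraries were almost equal and all lower than any of day 5 (log2 fold change -0.72, SE 0.14, edgeR adjusted p = 0.00205). A 3′ tag library yields about 1 tag per transcript, so tags are not divided by length here, but the yield of a gene also depends on its 3′ end, and an order of levels between genes is only approximate. The next large subunit gene in tag number, mRpL27, whose bacterial counterpart reaches the site of peptide bond formation, did not pass the test. It had 38.6, 65.4 and 59.4 CPM at day 11 and 73.2, 81.2 and 63.3 CPM at day 5, with overlap between the days (log2 fold change -0.42, 95% interval -0.84 to 0.0025, adjusted p = 0.109).

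The stalk of the large subunit, where translation factors bind, is built on the proteins of mRpL10, mRpL11 and mRpL12. All 3 genes were called lower. mRpL12 had 38.5, 30.5 and 35.0 CPM at day 11 and 55.5, 60.3 and 48.5 CPM at day 5 (edgeR log2 fold change -0.66, SE 0.15, adjusted p = 0.00503). mRpL10 was among the lowest of the tested genes, at 1.71, 2.46 and 1.74 CPM at day 11, which is 12 to 16 counts a library, and 6.21, 4.21 and 5.81 CPM at day 5 (log2 fold change -1.46, SE 0.37, adjusted p = 0.00967). mRpL11 had a log2 fold change of -1.14 (SE 0.31). With the length trend removed mRpL10 stayed called (edgeR adjusted p = 0.0376), but mRpL11 (adjusted p = 0.101) and mRpL12 (adjusted p = 0.261) did not. The call of mRpL11 was also lost without day 11 replicate 3. The genes of 2 core proteins around the catalytic centre in bacteria differed in outcome, with mRpL3 called lower at -0.77 and mRpL2 not called at -0.46 (95% interval -0.998 to 0.076). mRpL44, whose protein has a ribonuclease-like fold, had 2.56, 2.92 and 2.18 CPM at day 11 and 5.15, 6.38 and 3.79 CPM at day 5. Its days did not overlap, but its call was borderline (log2 fold change -0.998, adjusted p = 0.0492) and was lost in 13 of 17 other settings, with adjusted p of 0.0169 to 0.178.

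The only large subunit gene called higher was mRpL45, whose mammalian protein holds the ribosome to the inner membrane near the exit of the nascent chain. It had 34.9, 50.2 and 42.8 CPM at day 11 and 25.2, 33.3 and 28.5 CPM at day 5. The lowest day 11 library was only just above the highest of day 5 (edgeR log2 fold change 0.55, SE 0.17, adjusted p = 0.0259), and the call was lost in 5 of 18 other settings, with adjusted p of 0.0032 to 0.234 over the 18. These were scaling by total counts (log2 fold change 0.27) and leaving out day 11 replicate 2 (0.42) or 3 (0.55) or day 5 replicate 1 (0.45) or 3 (0.54). mRpL38 also had non-overlapping days, at 48.9, 50.8 and 48.0 CPM at day 11 and 38.2, 43.4 and 40.2 CPM at day 5, but was not called (log2 fold change 0.28, 95% interval -0.00925 to 0.57, adjusted p = 0.118).

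In the small subunit bonsai had the largest negative fold change of all tested members. Its CPM were 1.50, 2.76 and 1.02 at day 11 and 7.66, 9.26 and 7.70 at day 5, which are 7 to 18 counts a library at day 11 and 58 to 77 at day 5. The days were well separated, with the level at day 5 at 4.69 times that at day 11 (edgeR log2 fold change -2.23, SE 0.38, adjusted p = 0.000986). bonsai lies on chromosome 2R from 22637770 to 22638868 on the plus strand, and its 3′ end overlaps exons of CG3732 on the other strand. CG3732 averaged 20.5 CPM over the 6 libraries and had a log2 fold change of -0.05. mRpS33 had 5.34, 7.83 and 5.81 CPM at day 11 and 16.1, 21.2 and 14.9 CPM at day 5, again without overlap (log2 fold change -1.47, SE 0.24, adjusted p = 0.000729). Its 3′ end overlaps CG14881, whose log2 fold change was 0.96 at a mean of 4.97 CPM.

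The 3 relatives of bacterial S18 in the fly differed in whether they passed the test. mRpS18A, on chromosome 3R from 8561917 to 8562593, had 27.2, 28.4 and 30.8 CPM at day 11 and 53.9, 60.0 and 61.0 CPM at day 5 (edgeR log2 fold change -1.02, SE 0.14, adjusted p = 0.000199). mRpS18B had 14.1, 14.0 and 16.8 CPM at day 11 and 18.8, 22.01 and 20.6 CPM at day 5 (log2 fold change -0.45, 95% interval -0.84 to -0.065, adjusted p = 0.0646). mRpS18C had 1.71, 4.30 and 5.23 CPM at day 11 and 5.55, 6.01 and 6.69 CPM at day 5 (log2 fold change -0.72, 95% interval -1.59 to 0.15, adjusted p = 0.177). The days overlapped in none of the 3, and the intervals of mRpS18B and mRpS18C reach to -0.84 and -1.59. A difference between the 3 was not tested.

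mRpS10, mRpS17 and mRpS6, all with bacterial counterparts in the small subunit, were called lower with log2 fold changes of -1.08, -1.02 and -1.09. mRpS10 had 24.3, 17.04 and 19.6 CPM at day 11 and 39.4, 41.0 and 49.3 CPM at day 5 (SE 0.17, edgeR adjusted p = 0.000553). mRpS17 had 11.3, 17.7 and 11.8 CPM at day 11 and 22.1, 30.8 and 29.3 CPM at day 5, and mRpS6 had 13.4, 8.14 and 13.9 CPM at day 11 and 21.8, 23.2 and 30.6 CPM at day 5. No day 11 library of these genes reached a day 5 value. mRpS30 also fell, with 16.2, 18.3 and 15.4 CPM at day 11 and 25.0, 27.8 and 23.9 CPM at day 5 (log2 fold change -0.62, SE 0.17, adjusted p = 0.0117).

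tko, the gene of the decoding-site protein S12, had 4.92, 5.07 and 6.39 CPM at day 11 and 6.61, 9.02 and 8.46 CPM at day 5. The highest day 11 library lay just below the lowest of day 5, and the difference did not pass the test (edgeR log2 fold change -0.56, SE 0.27, 95% interval -1.15 to 0.034, adjusted p = 0.127). tko lies on chromosome X from 2442313 to 2443976 on the minus strand. mRpS26 was the most abundant small subunit gene by tags and did not differ detectably, with 55.1, 64.9 and 72.0 CPM at day 11 and 61.2, 66.3 and 61.5 CPM at day 5 (log2 fold change 0.02, 95% interval -0.29 to 0.33). mRpS7 and mRpS11 were likewise near 0, at -0.12 and 0.05, with overlapping days.

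mRpS28 was the only small subunit gene called higher. It had 17.8, 19.5 and 17.3 CPM at day 11 and 14.3, 9.02 and 11.1 CPM at day 5, with each day 11 library above each day 5 library (edgeR log2 fold change 0.67, SE 0.21, adjusted p = 0.0271). Its call was lost in 5 of 18 other settings, with adjusted p of 0.00196 to 0.229 over the 18. For mRpS28 these were scaling by total counts (log2 fold change 0.38) and leaving out day 11 replicate 2 (0.62) or 3 (0.71) or day 5 replicate 2 (0.51) or 3 (0.64). CG10927, which overlaps its 3′ end on the other strand, had a mean of 0.885 CPM. mRpS29, a GTP-binding protein known in mammals as DAP3, narrowly missed the threshold, with 32.7, 23.0 and 25.8 CPM at day 11 and 14.7, 20.3 and 21.3 CPM at day 5 (log2 fold change 0.54, SE 0.20, adjusted p = 0.0516). mRpS9 had the fewest tags of the tested genes, 2 to 29 counts a library, and its value of 0.91 came with a 95% interval of -0.59 to 2.40.

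**Figure D3:**
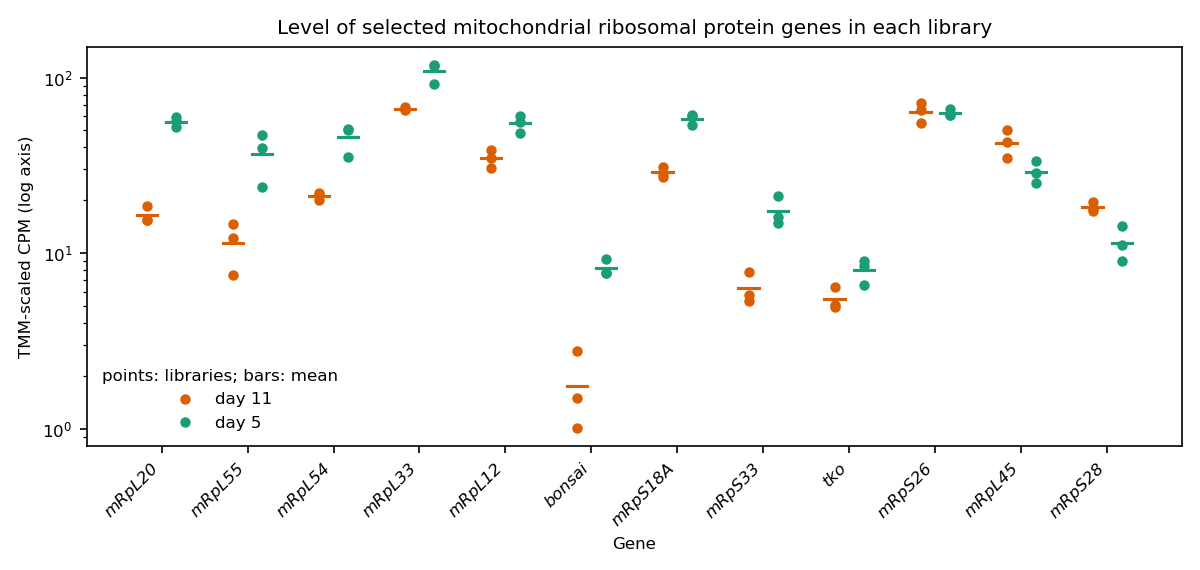
TMM-scaled CPM in each library (points, log axis) and the mean (bars) for 12 genes of the large and small subunit, day 11 left of day 5. The days are separated in 11 of the 12, with day 11 above day 5 in mRpL45 and mRpS28, and they overlap in mRpS26.

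The remaining 2 of the 75 genes did not pass the filter. mRpL53 had no count in any library, which allows up to 0.461 CPM in a library, and its exons overlap those of AGO1 and CG33155. mRpS24 had 0 or 1 count in 5 libraries and 12 counts in day 5 replicate 2. No fold change was computed for either.

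The genes lie on chromosomes 3R (21), 3L (17), 2R (13), 2L (12) and X (12). Called lower were 11 of 20 tested genes on 3R, 8 of 17 on 3L, 8 of 12 on 2R, 3 of 12 on 2L and 6 of 12 on X. A compact neighbourhood is common: in 43 of the 75 genes the last 300 exonic bases, where 3′ tags fall, overlap exons of another gene, on the opposite strand in 42 and on the same strand in 2. The sources used here do not say whether the counting used strand, so reads of these genes and of their partners may be mixed. Partners were more abundant than the ribosomal protein gene in 23 of 44 pairs. Of 35 pairs with both genes tested 9 partners were called lower and 3 higher, and the median of the partners was -0.47 on the log2 scale. Over all genes tested 17.9% were called lower and 19.1% higher, with a median of -0.0065. The partners thus leaned lower as well. Among the 32 genes with no such overlap 18 were called lower and 1 higher, with a median of -0.66, and among 41 tested genes with an overlap 18 were called lower and 1 higher, with a median of -0.65. The median level of the tested genes was 31.5 CPM without an overlap and 9.99 CPM with one. The cause of that gap was not tested. Of the genes described above, bonsai, mRpL2, mRpL10, mRpL11, mRpL17, mRpL34, mRpL41, mRpL44, mRpS9, mRpS18C, mRpS28, mRpS29 and mRpS33 have such an overlap, while mRpL20, mRpL54, mRpL55, mRpL33, mRpL36, mRpL12, mRpS10 and mRpS18A do not.

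Short transcripts in general gave lower values at day 11, and most of these genes are short. The median annotated transcript length of the tested genes of the set was 740 nt. Genes outside the named lists with transcripts over 600 and up to 800 nt numbered 351 and had a median of -0.42 on the log2 scale, against which the 25 ribosomal protein genes of that length had -0.79. Up to 600 nt the medians were -0.20 in 410 other genes and -1.02 in 15 of the set. Between 800 and 1000 nt they were -0.26 in 450 and -0.45 in 13, and between 1000 and 1500 nt -0.18 in 1277 and -0.42 in 19. The ribosomal protein genes thus had the lower median in each of these 4 length classes. Other genes over 2500 and up to 4000 nt had a median of 0.16.

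**Figure D4:**
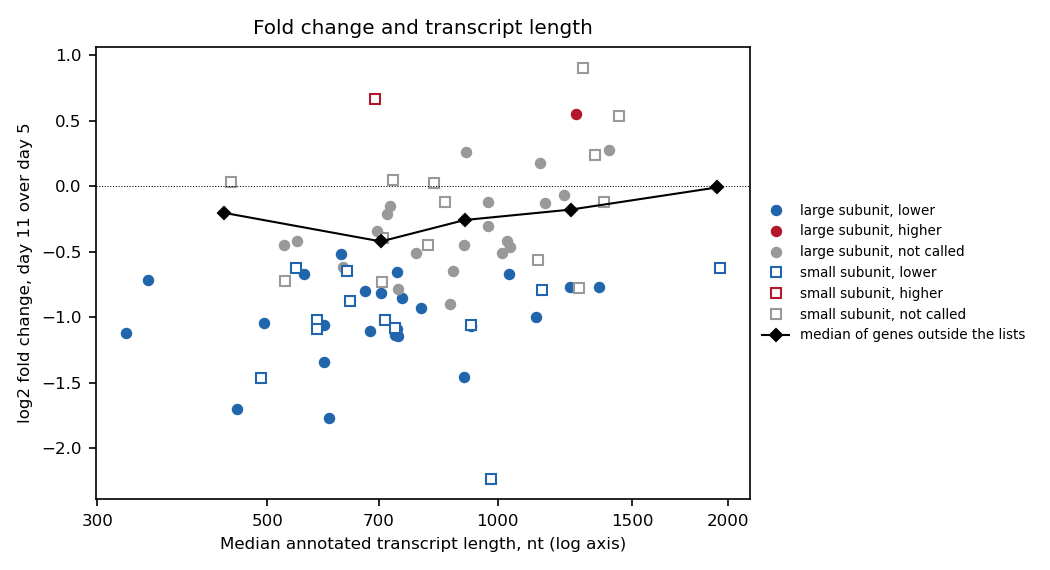
Log2 fold change, day 11 over day 5, against median annotated transcript length (nt, log axis) for the 73 tested genes of both subunits, with the median of genes outside the lists in each length class (black line). Within the span of the line all genes called lower lie under it, and mRpL33, mRpL34 and mRpS30 lie beyond its ends. Called lower were 24 of 37 genes up to the median length of 740 nt and 12 of 36 longer ones. Among all genes tested 17.9% were called lower.

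With this trend over all genes removed, the 15 genes called lower were among the 36 called lower without this correction. With the trend taken only from genes outside the lists the counts were 18 and 6 and the median -0.28 (15.0% of all genes called lower and 18.4% higher). The size of the fall and the number of calls therefore depend on how the length trend is treated, and the share called lower with the correction, 20.5%, is not far above that of all genes. The values of mRpL20 (-1.26, edgeR adjusted p = 8.74e-05), bonsai (-1.93, adjusted p = 0.00264), mRpL55 (-1.11, adjusted p = 0.0199), mRpL54 (-0.65, adjusted p = 0.0119), mRpS10 (-0.66, adjusted p = 0.0118) and mRpS33 (-0.89, adjusted p = 0.0141) kept their calls. mRpL33 and mRpL12 were then at -0.08 and -0.23 and not called, and mRpL34, mRpL36, mRpS6 and mRpS17 were not called at -0.48, -0.47, -0.57 and -0.58. For mRpL33, mRpL34 and mRpL36, of 349, 327 and 495 nt, the values without the correction were -0.72, -1.12 and -1.04. The curve thus took more from these 3 genes than the median of other genes up to 600 nt, -0.20. The trend of genes outside the lists took less from mRpL33 and mRpL34. They were then at -0.19 and -0.59, neither called (edgeR adjusted p = 0.33 and 0.054), while mRpL36 and mRpS17 kept their calls. How the calls of these genes would stand under a still smaller correction was not tested. The 7 called higher were mRpL38, mRpL45, mRpL46, mRpS11, mRpS26, mRpS28 and mRpS29, and 6 of them have numbers beyond the bacterial series. mRpS28 stood at 1.12 (adjusted p = 0.00196) and mRpL45 at 0.74 (adjusted p = 0.00692).

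Few other genes that serve mitochondrial translation were called, though most had negative values. Of 9 tested genes for mitochondrial translation factors and membrane insertion 2 were called lower and 1 higher, and 7 of the 9 log2 fold changes were negative, with a median of -0.40. These calls were 22.2% and 11.1% of the list, beside 17.9% lower and 19.1% higher among all genes tested. EfTuM, the elongation factor that brings aminoacyl-tRNA to the ribosome, had 25.6, 34.2 and 33.1 CPM at day 11 and 61.2, 49.2 and 70.2 CPM at day 5 (edgeR log2 fold change -0.96, SE 0.17, adjusted p = 0.0013). CG6412, now named mEFTs, the factor that recharges it with GTP, went the other way, with 97.5, 86.9 and 78.8 CPM at day 11 and 52.9, 58.2 and 60.4 CPM at day 5 (log2 fold change 0.62, SE 0.14, adjusted p = 0.0045). The libraries of these partner genes did not overlap between days. CG6404, now OXA1L, which inserts the products into the inner membrane, was lower at -0.99. Of 16 tested genes for charging mitochondrial tRNAs only CG31739, the aspartyl-tRNA synthetase AspRS-m, was called, at -0.51 (SE 0.16, adjusted p = 0.0277). Of these 16 values 13 were negative, with a median of -0.42, and the call of CG31739 was lost without day 11 replicate 3 or without day 5 replicate 1 or 3 (adjusted p = 0.0721 to 0.112). The 1 call was 6.25% of those tested. Transcripts of both lists were longer than those of the set, with medians of 1710 and 2176 nt. With the length trend removed the median log2 fold changes were -0.18 for the factors and -0.46 for tRNA charging. The ribosomal protein genes then had -0.23. Calls were then 2 lower and 1 higher among the factors, and 1 lower in tRNA charging.

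The upkeep and reading of the mitochondrial genome gave 2 lower and 2 higher calls among 15 tested genes, with a median of -0.27. Each direction was 13.3% of the list, under the shares of all genes tested, 17.9% lower and 19.1% higher. With the length trend removed 2 were called lower and 1 higher, with a median of -0.33. TFAM, which packages the mitochondrial DNA, was lower at -0.67 (edgeR adjusted p = 0.0038), and CG9791, the RNA helicase Suv3, at -1.24. scu, a dehydrogenase gene whose product also takes part in tRNA processing, was higher at 0.64, and mtRNApol, the mitochondrial RNA polymerase PolrMT, at 0.75 (adjusted p = 0.0361). With the length trend removed mtRNApol was not called, at 0.56 (edgeR adjusted p = 0.108), and scu kept its call. Without day 11 replicate 3 or day 5 replicate 3 there were 2 calls in this list. The calls of CG6412 and scu were lost under total-count scaling. The counted transcripts of the mitochondrial genome itself were not analysed here, since no row of the table carries their prefix.

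Genes for import, respiration and cytosolic ribosomes were called lower in most of the tested members of each list, before any correction for transcript length. All 11 tested genes for protein import and folding were called lower, with a median log2 fold change of -0.94. The list held 18 symbols, of which 14 were matched to a gene of the count table and 11 passed the filter. Tom40, the channel of the outer membrane, had 53.0, 53.4 and 60.2 CPM at day 11 and 109, 134 and 129 CPM at day 5 (edgeR log2 fold change -1.16, SE 0.14), Tom7 of the same complex had -1.17 and CG11267 -1.32. Of 62 tested nuclear genes of the respiratory chain and ATP synthase 38 were called lower and none higher, with a median of -0.61. Among them were CoVb, a subunit of cytochrome c oxidase, at -1.27, CG12859 (ND-B15) of complex I at -1.18 and CG9603 (COX7A) at -1.15. Of 82 tested cytosolic ribosomal protein genes 61 were called lower and 1 higher, with a median of -0.55. RpL41 was at -1.47 and RpS27A at -1.11, and the gene called higher was RpS5b, at 2.91, for which reads may be shared with its paralog. With the length trend removed 8, 16 and 14 genes of these 3 lists were called lower and 0, 1 and 4 higher, beside 14.2% lower and 18.7% higher among all genes. The 14 cytosolic ribosomal protein genes were 17.1% of those tested, near the share of all genes.

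**Figure D5:**
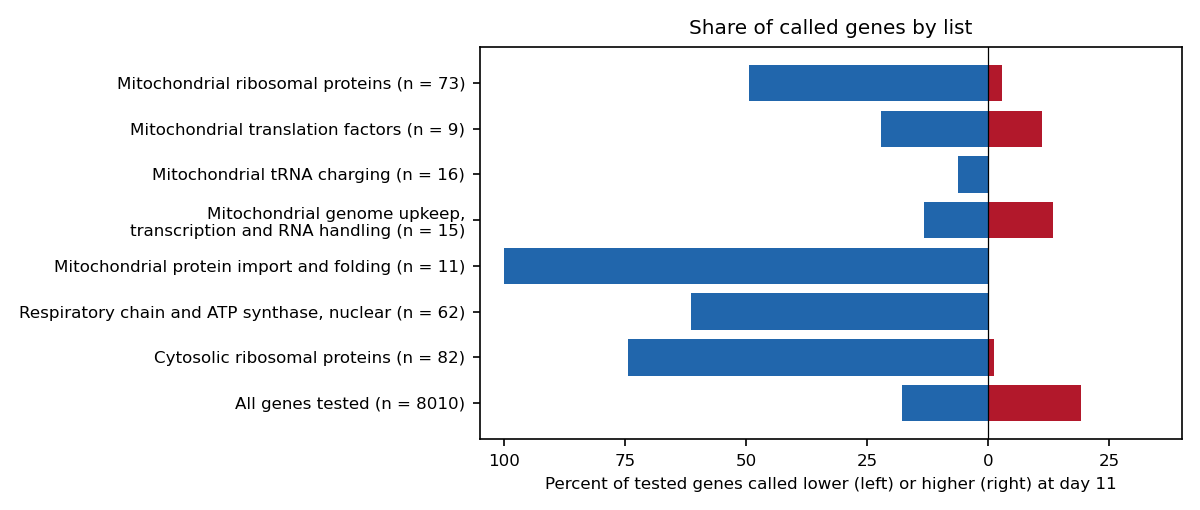
Percent of tested genes called lower (left of 0) or higher (right of 0) at day 11 in the set, in related lists and among all genes tested. Mitochondrial ribosomal protein genes were lower in 49.3%, between all genes (17.9%) and the import list (100% of 11 tested genes, from 18 symbols listed).

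Regulators known for nuclear genes of mitochondria were called in both directions, with 2 of 6 tested genes lower and 3 higher. The shares over all genes tested were 17.9% lower and 19.1% higher. srl, the fly relative of the PGC-1 coactivators, had 48.4, 43.6 and 42.7 CPM at day 11 and 74.0, 71.7 and 72.2 CPM at day 5 (edgeR log2 fold change -0.69, SE 0.13, adjusted p = 0.0016), with the days far apart. Dref was lower at -0.66. dm, the Myc gene of the fly, was higher with 642, 552 and 559 CPM at day 11 and 410, 369 and 401 CPM at day 5 (log2 fold change 0.57, SE 0.12, adjusted p = 0.0025), a call lost under total-count scaling. ewg, the relative of the respiratory factor NRF-1, was higher at 0.60, and cyc, a clock transcription factor gene, at 0.82. Under total-count scaling 3 genes of this list were called, against 5 with TMM scaling, so a call besides that of dm was lost. ewg and Dref were not among the genes followed singly under that scaling. crol was at -0.01 and not called.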

How the data were processed

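Messenger RNA of eye-antennal imaginal discs was measured in 6 libraries, 3 at day 11 and 3 at day 5, made from polyadenylated RNA with a forward QuantSeq 3′ kit, per the labels' protocols. The authors deposited raw read counts, whole numbers per gene with no normalization. Per the submitters' processing notes the tools were FastQC, cutadapt and STAR 2.6.1d, with genome build dm6; the annotation, the counting program and its strand setting are not given in the sources at hand. Separate cultures are not stated for the libraries of a day, and p-values then measure only the spread between these samples, part of which may be technical.

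The whole table was fitted with edgeR 4.0.16 (R 4.3.3) after filterByExpr and TMM scaling, using its quasi-likelihood test with robust shrinkage for day 11 over day 5 (two-sided). P-values were adjusted by Benjamini-Hochberg over 8010 genes, with a threshold of 0.05. Libraries of a day varied with a biological coefficient of variation of 0.211. SE and 95% intervals come from this fit. With 3 libraries a day, the smallest p of an exact permutation test is 0.1. The floor of 3 counts covers counting error only. Replicates differed by more than sampling noise and none was counted as a duplicate.

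The ribosomal protein genes and the lists (mitochondrial translation factors, tRNA charging, genome upkeep, respiratory chain, import and folding, cytosolic ribosomal proteins, regulators, and markers of disc, haemocyte, fat body, muscle, salivary gland and gut, and neuron) were chosen with earlier results of these data known. Genes described are all members called higher, the 8 large and 6 small subunit genes called lower with the smallest p, the 3 with the most and the 3 tested with the fewest tags, tko, bonsai, mRpL12, mRpS18A, mRpS18B, mRpS18C, mRpS30, mRpL45, untested members, and the 3 called genes of each list with the smallest p. mRpL2, mRpL3, mRpL11, mRpL38, mRpS7, mRpS11, mRpS29, mtRNApol, Dref, ewg, crol, hth and Sgs1 were named after their values were seen, as were the members listed by their calls or overlaps.

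Of 16727 symbols 12512 were current and 3996 matched a RefSeq synonym. Loci (1-based, assembly release 6, which dm6 names), transcript lengths and overlaps came from the Ensembl annotation. The length trend was a loess curve of log2 fold change on log length, used as an offset. The fits were tested on simulated data. Alternatives were DESeq2 1.42.0 size factors and Wald test, limma-voom (limma 3.58.1), upper-quartile and total-count scaling, 2 abundant non-coding RNAs left out, no low-count filter, at least 5 CPM in 3 libraries, no robust shrinkage, a replicate block, the length trend removed, and each library left out. A length trend from genes outside the lists and a restriction to genes with no 3′ overlap were added after the data were seen. Promoter sequences were not used here.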

Additional observations from a re-analysis of the deposited data

How the results depend on the processing

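Median log2 fold changes of all tested members, the large and the small subunit kept their sign under every alternative run. Total-count scaling gave -0.94, -0.94 and -0.91. Removal of the length trend gave -0.23, -0.26 and -0.17, or -0.28, -0.31 and -0.25 with the trend of genes outside the lists. Leaving out 1 library gave -0.70 to -0.56, -0.78 to -0.63 and -0.70 to -0.44, the last value without day 11 replicate 1. Called members were 22 of all and 12 of the large subunit with the length trend removed, and 24 and 14 with the trend of genes outside the lists. Respiratory chain genes called were 17 and 21, and cytosolic ribosomal protein genes 18 and 25, under these settings. Members with no 3′ overlap gave 19 calls, 13 large and 6 small, from 32 genes tested. Total-count scaling gave 6 calls in tRNA charging and 3 among regulators. With 1 library left out the calls were 27 to 38 for all members, 19 to 26 large, 8 to 13 small, 2 to 5 in genome upkeep and 0 to 1 in tRNA charging. The other list counts stayed within 1.5 times.

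No clear pairing by replicate number was seen: deviations of same-numbered libraries correlated at 0.05, 0.19 and -0.09. Libraries with different numbers correlated at -0.23 to 0.17, and with 3 libraries a day a weak pairing could not be detected. The replicate block gave 38 called members, 25 large and 13 small, with a median of -0.67. Of 45 single genes followed, mRpL27 reversed to 0.13 and 0.048 with the length trends removed, and mRpS26 to -0.00573 under upper-quartile scaling, -0.26 under total counts and -0.065 to 0.12 with 1 library left out; neither was called in the main comparison. Of the other gene results under an alternative 751 kept direction and side of the threshold, 43 lost the call and 7 gained one. The cause of these shifts was not tested. Members called lower under all alternatives with a test numbered 14, of which 8 have no 3′ overlap. With 1 to 3 counts worth up to 0.461 CPM, genes as low as mRpS24 could not be compared at this depth.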
